A study of Mus musculus with 9 samples.

Results

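The 51 genes described here encode the DNA replication machinery and its S phase companions, and they were followed in myeloid cells sorted from dystrophic mouse muscle. They were chosen by name in 11 functional subgroups, from the MCM helicase to cyclin E, out of 50559 genes listed in the count files. The list was drawn up after earlier results of the same libraries had shown replication genes higher with prednisolone, so the changes below are a description of these genes and not independent evidence of their direction. All 51 genes passed the filter on low counts, which left 16618 genes tested.

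RNA was sequenced from CD45+CD11b+ cells (the leukocyte and myeloid surface antigens) sorted from quadriceps of 4.5-week-old *mdx* mice, which lack dystrophin and develop muscle inflammation in their first weeks. The mice had received for 7 days drinking water with spironolactone, a mineralocorticoid receptor antagonist, with prednisolone, a glucocorticoid receptor agonist, or the sucralose-containing vehicle alone, which all 3 groups drank. Each group held 3 libraries, each library was a pool of cells from 3 mice, both sexes were used, and live and dead cells were not separated. The question addressed was whether a glucocorticoid and a mineralocorticoid receptor antagonist act differently on muscle myeloid cells, and both drugs were set against the same 3 vehicle libraries. P values measure the spread between pools, and no nondystrophic group was analysed here.

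Cells duplicate their genome once per cycle. In G1 phase the origin recognition complex, CDC6 and CDT1 load the MCM helicase onto origins, and in S phase CDC45 and the GINS complex activate that helicase so that polymerases alpha, delta, and epsilon, the PCNA clamp, and the Okazaki fragment enzymes can copy both strands. Many of these genes are transcribed by E2F factors as cells leave G1, and macrophages in injured muscle are known to be able to divide locally as well as to derive from blood monocytes.

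The libraries held 31469815 to 32943512 counts on genes, so that 1 CPM (counts scaled to the library size after trimmed mean of M values [TMM] normalization, the unit used below) stood for 31.6 to 33.7 counts. Markers of the sorted cells were abundant, with 10 myeloid markers summing to 18387 to 22199 CPM. *Adgre1*, which encodes the F4/80 antigen, lay between 617 and 733 CPM in all 9 libraries. Markers of cells outside the gate were also present, at summed levels from 1104 to 1777 CPM for fibro-adipogenic cells, from 217 to 709 CPM for muscle fibers, from 78.0 to 275 CPM for endothelial cells, from 37.1 to 306 CPM for erythroid cells, from 19.3 to 54.2 CPM for lymphocytes and from 39.5 to 86.5 CPM for satellite cells and myoblasts. The cells of origin of these transcripts were not tested. Of the fibro-adipogenic sum, *Gsn* held 458 to 548 CPM, *Col1a1* 230 to 401 CPM, *Col3a1* 222 to 467 CPM, and *Pdgfra* 3.07 to 7.72 CPM. Single libraries stood apart within their groups. Neutrophil markers summed to 4985 CPM in vehicle replicate 3 against 802 and 1079 CPM in the other vehicle libraries, and to 3708 CPM in spironolactone replicate 3 against 1428 and 1628 CPM. Monocyte markers summed to 1572 CPM in vehicle replicate 1 against 3316 and 2995 CPM in replicates 2 and 3.

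Levels between genes were compared only per transcript length, as TPM (counts scaled by the canonical transcript's length and by the library's sum of such values), computed here. In vehicle libraries *Pcna*, the sliding clamp that tethers polymerases to DNA, was the highest of the 51 genes, at 215 ± 21.5 TPM (SD, n = 3). *Cdt1*, a licensing factor that brings MCM complexes to origins, followed at 63.1 ± 6.27 TPM and *Mcm6* at 62.8 ± 11.01 TPM. The vehicle libraries of *Pcna* lay wholly above those of *Cdt1*, whereas those of *Cdt1* and *Mcm6* overlapped. *Orc1*, the largest origin recognition subunit, was lowest at 1.18 ± 0.324 TPM, with *Ccne2* next at 1.59 ± 0.549 TPM and overlapping it. Within the nucleotide supply genes, the ribonucleotide reductase subunits *Rrm1* and *Rrm2* stood at 24.4 ± 4.87 and 18.0 ± 4.20 TPM and overlapped. *Pcna*, *Cdt1*, and *Mcm6* also ranked 1, 2, and 3 when all annotated exons were summed in place of the canonical transcript, but *Tk1* moved from rank 16 to rank 34, so that order is sensitive to the transcript length used.

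**Figure D1:**
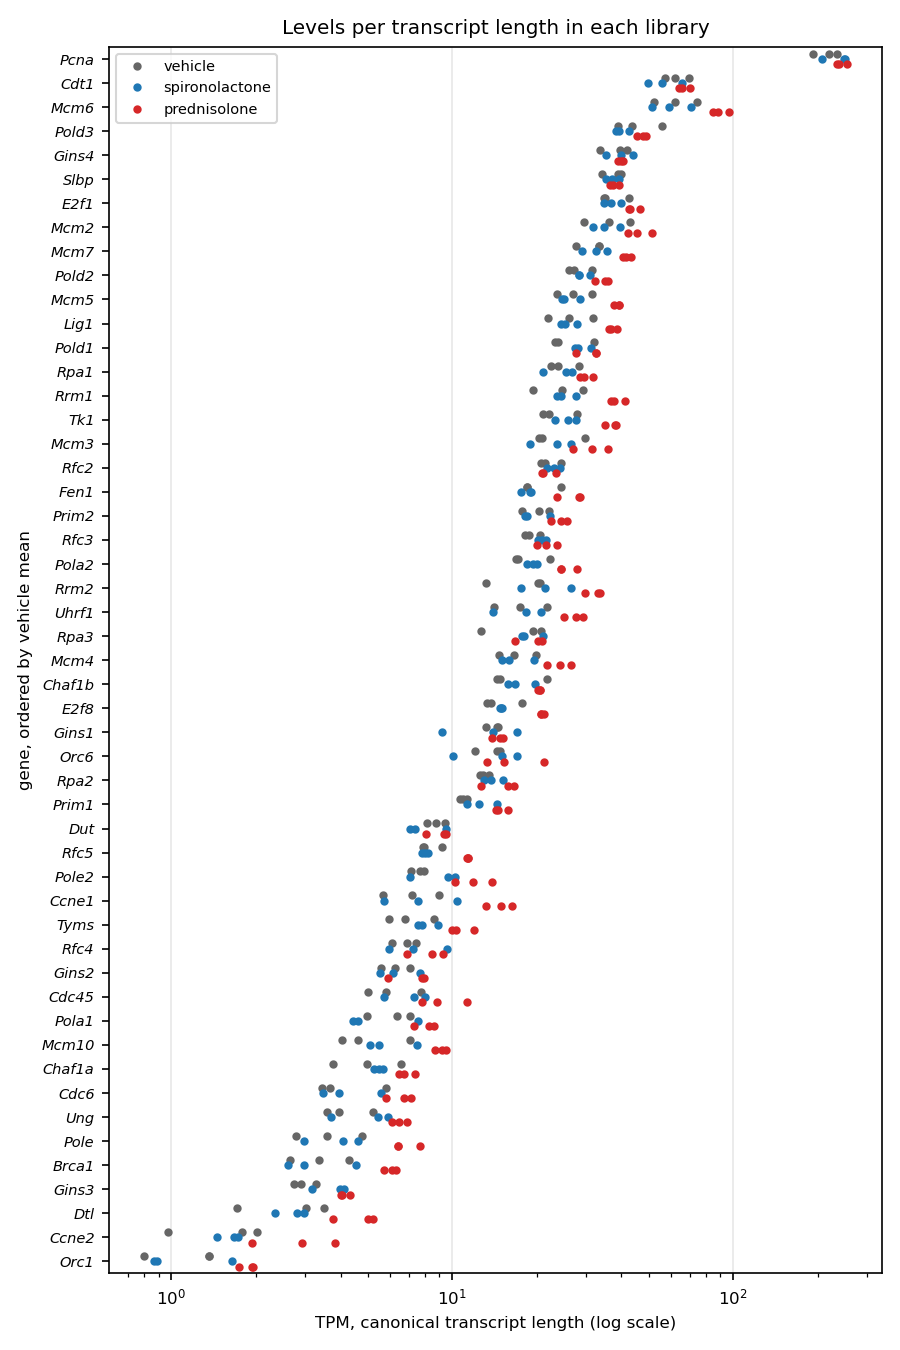
Level of each of the 51 genes in each library, in TPM by canonical transcript length on a log axis, ordered by the vehicle mean (gray, vehicle; blue, spironolactone; red, prednisolone; 3 points per group). *Pcna* stands alone at 192 to 254 TPM, and the lowest gene, *Orc1*, lies between 0.801 and 1.95 TPM.

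With prednisolone, most replication genes had higher levels than with vehicle, by small amounts. Since the libraries are bulk RNA, more cells in S phase and more RNA of these genes per cell cannot be told apart. The fitted log2 fold change was above 0 for 44 of 51 genes, against 47.8% of all genes, with a median of 0.35 (1.28-fold) against a median of -0.01 over all genes tested, and ranged from -0.11 for *Rfc2* to 0.95 for *Ccne1*. In edgeR's quasi-likelihood test, adjusted over all genes and called at an adjusted P below 0.05, 5 of 51 were called higher and 0 lower, where 1.0% of all genes were called higher and 0.758% lower (in both directions together, edgeR called 1.76% of all genes). DESeq2 called 16 of the 51 and 4.72% of all genes, and limma-voom 6 of the 51 and 1.58% of all genes. At an unadjusted P below 0.05, 27 genes were higher and 0 lower, against 7.13% and 7.07% of all genes. All 3 prednisolone libraries lay above all 3 vehicle libraries for 29 of 51 genes and below them for 0, against 10.4% and 9.27% of all genes, and above the other 6 libraries for 24, against 6.48%. These calls rest on the full set of pools. The adjusted count fell to 0 without vehicle replicate 2 or without any 1 of the prednisolone libraries and to 1 without vehicle replicate 3, and it rose to 16 without vehicle replicate 1 and to 8 without spironolactone replicate 1. The share of all genes called moved with it, to 4.83% without vehicle replicate 1, 0.741% without vehicle replicate 2, 1.04% without vehicle replicate 3, 1.97% without spironolactone replicate 1, and 0.402% to 0.892% without a prednisolone library. The median of the 51 genes stayed between 0.26 and 0.39.

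**Figure D2:**
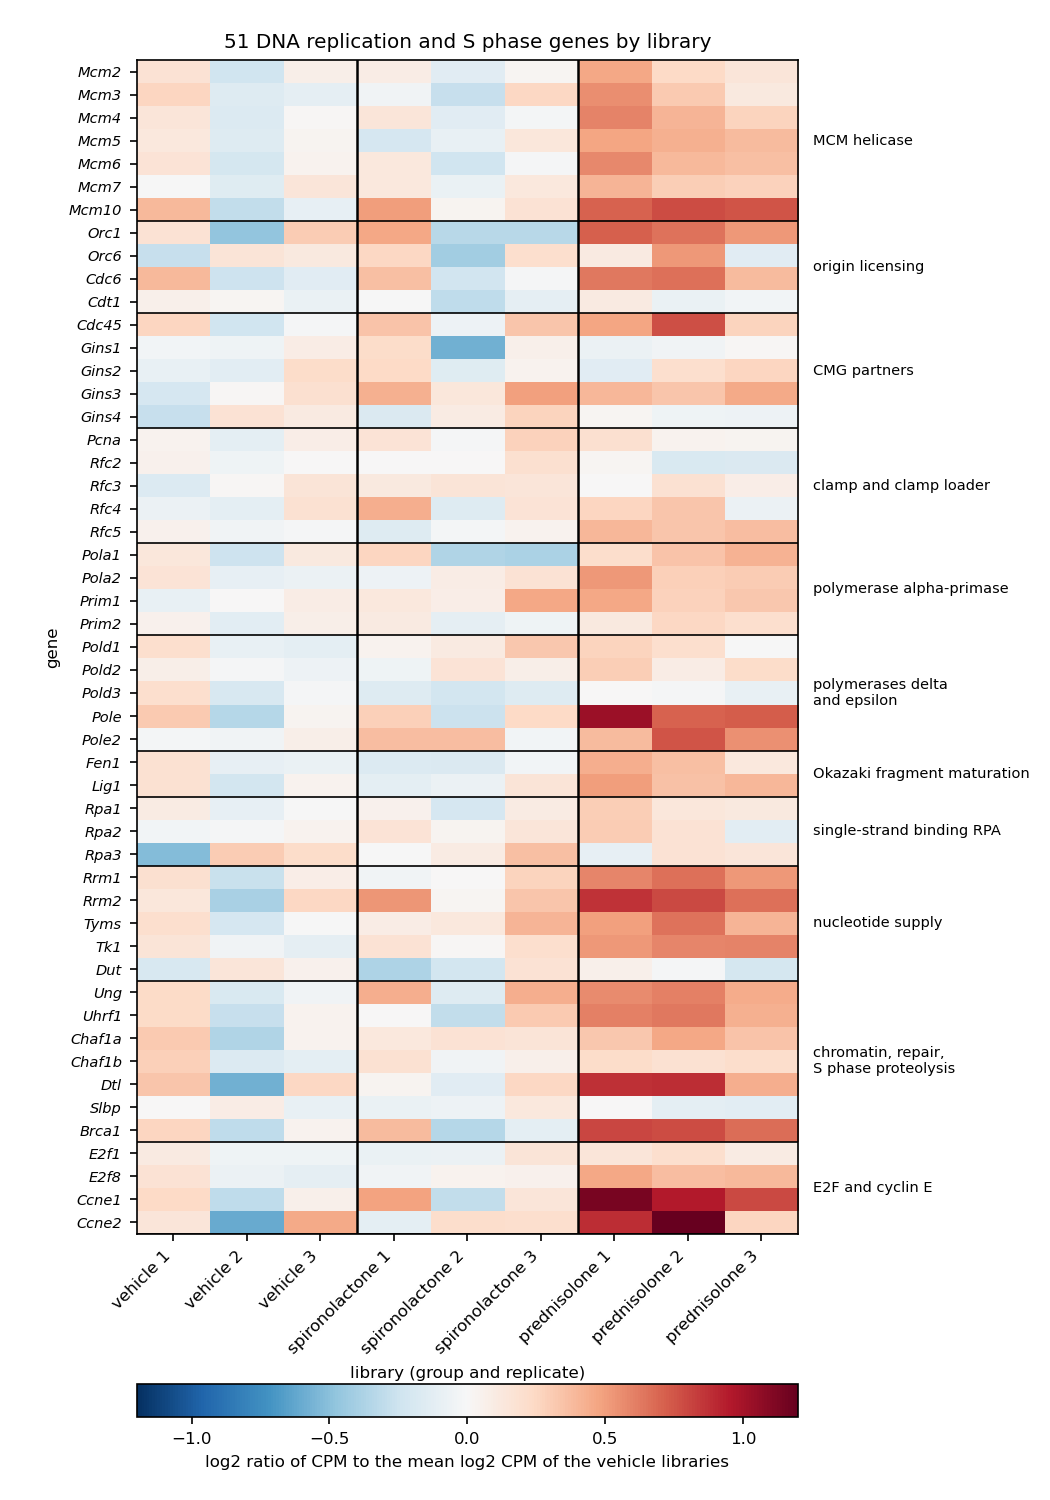
Level of each gene in each library as the log2 ratio to the mean log2 CPM of the vehicle libraries, with 51 genes in rows by subgroup and the 9 libraries in columns by group (red, above vehicle; blue, below). The prednisolone columns are red for most rows, with 48, 44, and 41 genes above the vehicle mean in replicates 1, 2, and 3, and pale for *Pcna*, *Cdt1*, *Rfc2*, *Pold3*, *Dut*, and *Slbp*.

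The genes that supply deoxynucleotides held 3 of the 5 called genes. *Rrm1*, the large subunit of ribonucleotide reductase, which makes deoxynucleotides from ribonucleotides, was measured at 51.4, 37.4 and 47.7 CPM in vehicle replicates 1, 2, and 3 and at 67.8, 71.3 and 64.8 CPM with prednisolone. *Rrm2*, the subunit whose level follows the cell cycle, was at 20.1, 14.01 and 21.7 CPM with vehicle and 33.4, 31.7 and 28.9 CPM with prednisolone. *Tk1*, the cytosolic thymidine kinase of the salvage pathway, was at 14.9, 12.98 and 12.4 CPM with vehicle and 19.2, 20.1 and 20.3 CPM with prednisolone. For all 3 genes every prednisolone library lay above every vehicle library, and vehicle replicate 2 was the lowest vehicle library for *Rrm1* and *Rrm2*. The fitted log2 fold changes were 0.58 ± 0.12 (SE) for *Rrm1*, 0.75 ± 0.16 for *Rrm2*, and 0.56 ± 0.11 for *Tk1*, with adjusted P of 0.0263, 0.0328, and 0.0238 in edgeR's test. *Tyms*, which makes thymidylate, had a log2 fold change of 0.51 ± 0.15 and did not pass the adjusted threshold. *Dut*, the dUTPase that keeps uracil out of DNA, had an estimate near 0, -0.06 ± 0.17 with a 95% interval of -0.43 to 0.32. *Tk1* (chromosome 11, 117702770 to 117717042, minus strand, GRCm39) is overlapped on the plus strand by *Afmid*, *Gm20708*, and *Syngr2*, and *Rrm2* (chromosome 12, 24757811 to 24764145, plus strand) by *Gm59512*. Since the strand setting of the counting is not given in the sources used here, reads of such pairs cannot be told apart, and 28 of the 51 genes have such a neighbor. *Rrm1* (chromosome 7, 102090890 to 102119709, plus strand) has no annotated partner on the opposite strand.

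Cyclin E and the E2F factors act at the G1 to S transition. *Ccne1*, the cyclin that activates CDK2 at S phase entry, was at 6.93, 4.77 and 6.14 CPM with vehicle and 12.9, 11.4 and 10.2 CPM with prednisolone. The prednisolone libraries were all above the vehicle libraries, and the log2 fold change of 0.95 ± 0.21 (1.93-fold, adjusted P = 0.0326, edgeR) was the highest among the 51 genes. *Ccne2*, its paralog, had a similar estimate but a wide interval, 0.78 ± 0.29 with 0.15 to 1.40, and its libraries overlapped. *E2f8*, an atypical E2F that represses E2F targets late in S phase, was at 24.5, 20.8 and 20.2 CPM with vehicle and 29.9, 28.2 and 28.5 CPM with prednisolone, without overlap, and had a log2 fold change of 0.40 ± 0.10 and an adjusted P of 0.0652 in edgeR. *E2f1*, an activator of S phase genes and the most abundant of the subgroup, was at 43.3, 39.00 and 38.8 CPM with vehicle and 44.7, 46.5 and 43.3 CPM with prednisolone. Its groups overlapped narrowly, with a log2 fold change of 0.15 ± 0.09. *Ccne1* (chromosome 7, 37797404 to 37808264, minus strand) and *E2f8* (chromosome 7, 48516176 to 48531452, minus strand) are overlapped on the other strand by *1600014C10Rik* and *Gm2788*.

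The genes of the replicative helicase had estimates of the same direction but of different size. All 7 MCM genes had a log2 fold change above 0, from 0.28 for *Mcm2* to 0.72 for *Mcm10*. In edgeR 6 were higher at an unadjusted P below 0.05, against 7.13% of all genes. For 5 every prednisolone library lay above every vehicle library, against 10.4% of all genes. After adjustment 0 of the 7 were called, where edgeR called 1.0% of all genes higher. *Mcm6*, the most abundant subunit, was at 82.1, 63.1 and 75.5 CPM with vehicle and 109, 95.97 and 93.6 CPM with prednisolone. *Mcm5* was at 53.8, 44.3 and 50.5 CPM with vehicle and 68.5, 66.2 and 64.1 CPM with prednisolone, and *Mcm4* at 38.04, 30.7 and 34.8 CPM with vehicle and 51.8, 45.6 and 41.5 CPM with prednisolone. These 3 subunits of the hexamer that unwinds DNA were separated between groups and had nearly the same estimates, 0.44 ± 0.12, 0.42 ± 0.10, and 0.42 ± 0.11 on the log2 scale. *Mcm10*, which is not a hexamer subunit but helps to activate the helicase, was at 11.98, 7.49 and 8.57 CPM with vehicle and 14.9, 15.8 and 15.4 CPM with prednisolone, with a log2 fold change of 0.72 ± 0.17 and an adjusted P of 0.0561 in edgeR. *Mcm2* and *Mcm3* overlapped between groups through prednisolone replicate 3. *Mcm7* did not overlap, but its locus is shared with *Ap4m1* and *Cops6* on the opposite strand and with 3 microRNA genes on its own.

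Promoter sequences are shown for *Mcm4* and *Mcm5*, as helicase genes that differed between the 2 drugs and hold E2F letters before the start, and for *Pcna*, as the most abundant of the genes and 1 whose estimate lay near 0. Each is the 160 bases before the canonical GENCODE start, read 5' to 3' on the gene's strand from GRCm39, at chr16:15455265-15455424 (minus) for *Mcm4*, chr8:75835980-75836139 (plus) for *Mcm5*, and chr2:132095235-132095394 (minus) for *Pcna*. Capitals mark E2F letters, meaning any of TTTCCCGC, TTTGGCGC, TTTCGCGC, and TTTGCCGC on either strand.
Mcm4: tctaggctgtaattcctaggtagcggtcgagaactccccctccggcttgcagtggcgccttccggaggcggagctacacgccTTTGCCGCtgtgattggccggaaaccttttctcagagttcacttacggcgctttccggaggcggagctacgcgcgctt
Mcm5: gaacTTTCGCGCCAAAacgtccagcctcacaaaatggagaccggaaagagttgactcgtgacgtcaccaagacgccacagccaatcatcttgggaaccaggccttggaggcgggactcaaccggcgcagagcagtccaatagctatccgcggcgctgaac
Pcna: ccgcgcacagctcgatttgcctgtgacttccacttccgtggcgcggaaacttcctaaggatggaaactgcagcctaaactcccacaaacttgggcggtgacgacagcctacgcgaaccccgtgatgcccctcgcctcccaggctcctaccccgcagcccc
*Mcm4* holds 1 match in this stretch, from 78 to 71 bases before the start. *Mcm5* holds 2 that overlap, 1 on each strand, from 156 to 145 bases before the start. *Pcna* holds 0, which says only that these letters are not in this window.

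In the window from 250 bases before to 50 after the start, 15 of 51 genes (29.4%) held E2F letters, against 2.82% of 21751 gene promoters. The 15 were *Mcm3*, *Mcm4*, *Mcm5*, *Mcm6*, *Orc1*, *Cdc6*, *Cdt1*, *Gins1*, *Rfc3*, *Pola1*, *Pole*, *Pole2*, *Dtl*, *E2f1*, and *E2f8*, and in 10 of them the letters lay only after the start. The NF-Y letters CCAAT, on either strand, were in 29 of 51 (56.9%) against 39.9% of all promoters. The letters TTTGAA, known from promoters of late cell cycle genes, were in 3 (5.88%) against 17.1%, and TATAAA in 2 (3.92%) against 13.2%. The full palindromic glucocorticoid response element was found in 0 of the 51 and in 0 of all promoters, so this search carries no information on that receptor. With prednisolone the 15 genes with E2F letters had a median log2 fold change of 0.42 with 1 called higher by edgeR. The other 36 had a median of 0.32 with 4 called higher. Over all genes the median was -0.01 and 1.0% were called higher. Without any 1 of the prednisolone libraries, 0 of the 51 were called. *Pole* was the called gene with the letters, and *Cdt1* and *Gins1*, which also hold them, had estimates near 0.

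Among the licensing factors, *Cdc6*, the ATPase that loads MCM complexes, was at 9.94, 6.43 and 6.92 CPM with vehicle and 11.8, 12.01 and 9.92 CPM with prednisolone, with a log2 fold change of 0.53 ± 0.20 and an adjusted P of 0.217 in edgeR. Its groups overlapped only through vehicle replicate 1. *Cdt1*, the partner of *Cdc6* in loading, was at 57.5, 55.8 and 52.04 CPM with vehicle and 59.3, 52.1 and 53.99 CPM with prednisolone, and its log2 fold change was -0.0011 ± 0.10 with a 95% interval of -0.21 to 0.21. The licensing subgroup thus held both a gene with a higher estimate and an abundant gene with an interval centered on 0. *Orc1* and *Orc6*, subunits of the origin recognition complex, had estimates of 0.59 ± 0.32 and 0.18 ± 0.21, the first with 1.09 to 1.87 CPM in vehicle libraries and 2.17 to 2.49 CPM with prednisolone.

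The helicase activators were uneven in the same way. *Cdc45* was at 8.39, 5.93 and 6.92 CPM with vehicle and 9.75, 12.01 and 8.43 CPM with prednisolone, a log2 fold change of 0.51 ± 0.19 with an adjusted P of 0.217 in edgeR. *Gins4*, the most abundant subunit of the GINS complex that joins CDC45 and MCM, was at 18.1, 24.6 and 23.6 CPM with vehicle and 22.3, 21.2 and 21.03 CPM with prednisolone, -0.04 ± 0.14 on the log2 scale. Of the other GINS subunits, *Gins1* and *Gins2* had estimates of -0.03 ± 0.20 and 0.11 ± 0.16, and *Gins3* of 0.39 ± 0.21 without overlap between groups.

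For the clamp and its loader, 1 of 5 genes was higher and 0 lower at an unadjusted P below 0.05 in edgeR, against 7.13% and 7.07% of all genes. *Pcna* was at 132, 118 and 136 CPM with vehicle and 147, 132 and 132 CPM with prednisolone, a log2 fold change of 0.09 ± 0.10 with a 95% interval of -0.12 to 0.29, which lies wholly below the interval of 0.51 to 1.39 for *Ccne1*. *Rfc5*, a small subunit of the clamp loader RFC, was at 13.6, 12.8 and 12.96 CPM with vehicle and 17.3, 16.5 and 16.9 CPM with prednisolone, without overlap, and had an estimate of 0.37 ± 0.11. Its partners had estimates nearer 0, with *Rfc2* at -0.11 ± 0.09, *Rfc3* at 0.09 ± 0.13, and *Rfc4* at 0.18 ± 0.21.

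For all 4 genes of the polymerase alpha-primase complex, which lays down primers, every prednisolone library lay above every vehicle library, against 10.4% of all genes. In edgeR 2 of them were higher at an unadjusted P below 0.05, against 7.13% of all genes. *Pola2*, its B subunit, was at 20.3, 16.8 and 17.2 CPM with vehicle and 25.9, 21.9 and 22.3 CPM with prednisolone, 0.37 ± 0.12 on the log2 scale. *Pola1*, *Prim1*, and *Prim2*, the catalytic and primase subunits, had estimates from 0.19 to 0.36. Among the polymerases that extend the primers, *Pole*, the catalytic subunit of the leading-strand polymerase epsilon, was at 14.4, 9.14 and 11.9 CPM with vehicle and 23.7, 19.01 and 19.2 CPM with prednisolone. The libraries did not overlap, and the log2 fold change of 0.81 ± 0.18 (1.75-fold) was called with an adjusted P of 0.0393 in edgeR. *Pole* (chromosome 5, 110434172 to 110486287, plus strand) is overlapped by *Gm15792* on the minus strand. *Pole2*, the second subunit of that enzyme, had 0.57 ± 0.18, also without overlap. The lagging-strand polymerase delta had smaller estimates, with *Pold1* at 0.15 ± 0.12 and *Pold2* at 0.20 ± 0.11, the latter also without overlap. Its accessory subunit *Pold3*, the most abundant of the 5 genes, was at 66.2, 50.2 and 57.1 CPM with vehicle and 57.7, 56.9 and 53.96 CPM with prednisolone, -0.04 ± 0.10 on the log2 scale.

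Okazaki fragments are trimmed by FEN1 and sealed by DNA ligase I. *Lig1* was at 39.7, 29.9 and 35.9 CPM with vehicle and 49.4, 44.5 and 46.1 CPM with prednisolone, without overlap, and *Fen1* at 23.8, 19.7 and 19.9 CPM with vehicle and 28.4, 27.05 and 22.9 CPM with prednisolone, with overlap through prednisolone replicate 3. Their log2 fold changes were 0.41 ± 0.11 and 0.31 ± 0.12, with adjusted P of 0.0922 and 0.232 in edgeR. Estimates were smaller for the single-strand binding protein RPA. *Rpa1*, its large subunit, was at 56.5, 49.3 and 52.4 CPM with vehicle and 64.7, 57.9 and 57.05 CPM with prednisolone, 0.18 ± 0.10 on the log2 scale, and *Rpa2* and *Rpa3* had 0.13 ± 0.14 and 0.03 ± 0.23.

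The subgroup of chromatin, repair, and S phase proteolysis genes held 7 members. With prednisolone 5 of them were higher at an unadjusted P below 0.05 in edgeR, against 7.13% of all genes. *Uhrf1*, which carries DNA methylation through replication, was at 29.3, 20.7 and 25.9 CPM with vehicle and 38.03, 38.9 and 33.7 CPM with prednisolone. *Brca1*, which protects and repairs replication forks, was at 10.6, 7.18 and 9.16 CPM with vehicle and 15.5, 15.3 and 14.1 CPM with prednisolone. Both were without overlap, with log2 fold changes of 0.54 ± 0.15 and 0.73 ± 0.19 and adjusted P of 0.101 and 0.0676 in edgeR. *Dtl*, which directs CDT1 to degradation in S phase, had 0.69 ± 0.24, and *Ung*, the uracil-DNA glycosylase, had 0.53 ± 0.22. The large and middle subunits of the chromatin assembly factor CAF-1, *Chaf1a* and *Chaf1b*, had 0.35 ± 0.15 and 0.19 ± 0.14. *Slbp*, which binds histone mRNA and accumulates in S phase largely at the protein level, was near 0 at -0.08 ± 0.10, with a 95% interval of -0.29 to 0.13.

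**Figure D3:**
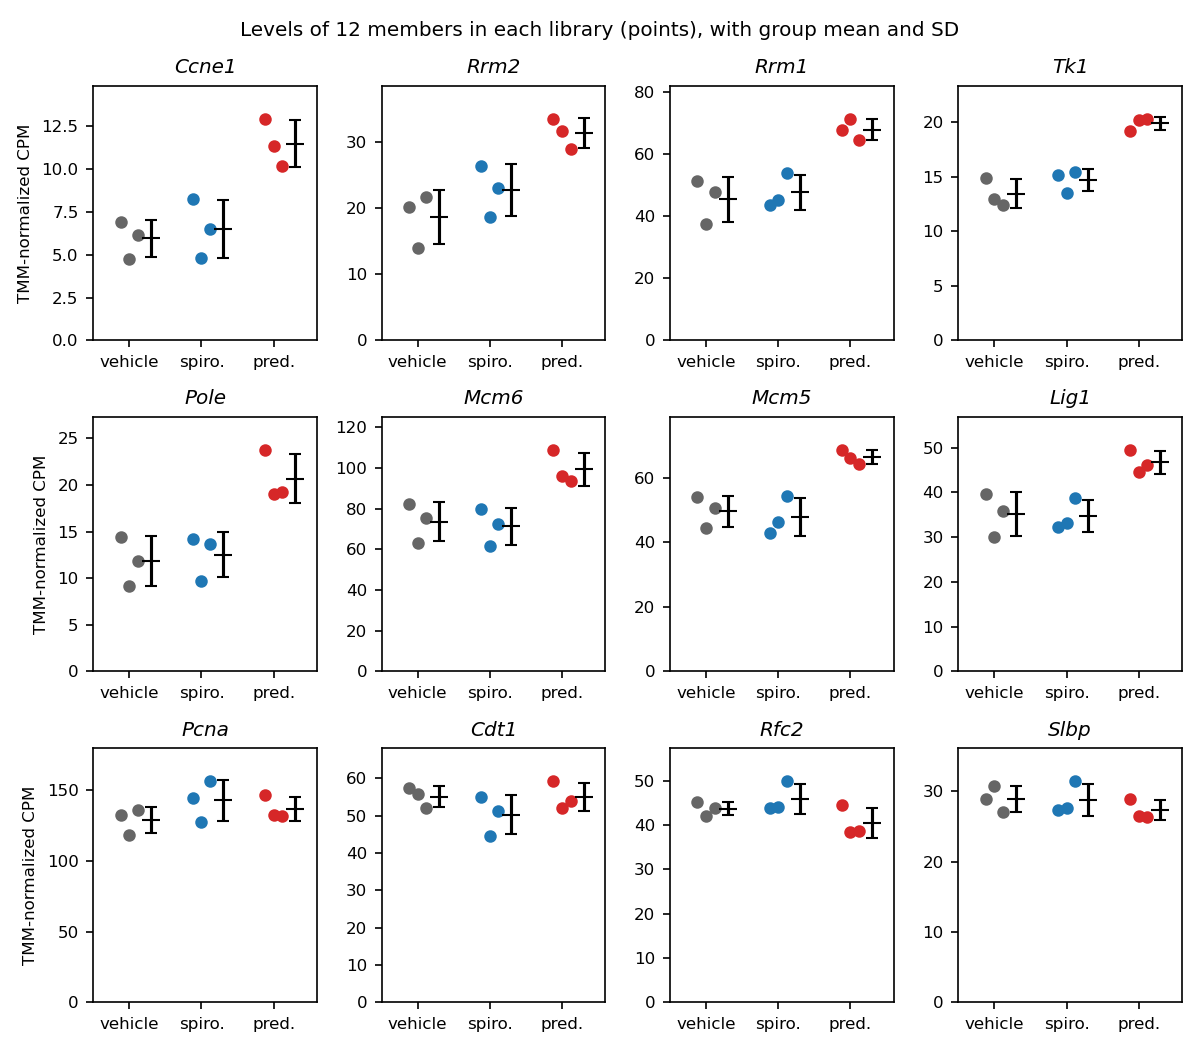
TMM-normalized CPM of 12 of the genes in each library (points in replicate order; vertical axes start at 0), with the group mean and SD (n = 3) beside them. In the upper 8 panels, for *Ccne1*, *Rrm2*, *Rrm1*, *Tk1*, *Pole*, *Mcm6*, *Mcm5*, and *Lig1*, the prednisolone points lie above all vehicle and spironolactone points, and in the lower 4, for *Pcna*, *Cdt1*, *Rfc2*, and *Slbp*, the groups overlap.

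With spironolactone the same genes stayed near their vehicle levels. The fitted log2 fold change was above 0 for 33 genes and below 0 for 18, with a median of 0.04 and a range from -0.18 for *Pold3* to 0.35 for *Gins3*. In edgeR 0 of 51 were called and 0 were below an unadjusted P of 0.05 in either direction, where 0.0181% of all genes were called higher and 5.21% and 4.07% lay below the unadjusted threshold in the higher and lower direction. DESeq2 also called 0 of the 51, where it called 1.83% of all genes, and limma-voom called 0 of the 51 and 0% of all genes. For 0 of 51 genes did the spironolactone and vehicle libraries fail to overlap, against 6.99% of all genes above and 6.50% below. The 95% interval lay wholly within 0.5 log2 units of 0 for 35 of 51 genes, so that for those a change of that size was outside the interval, and for the other 16 it was not. The genes called with prednisolone had spironolactone values of 43.7, 45.3 and 54.1 CPM for *Rrm1*, 26.4, 18.6 and 23.1 for *Rrm2*, and 15.1, 13.5 and 15.4 for *Tk1*. *Pole* was at 14.2, 9.71 and 13.7 CPM and *Ccne1* at 8.23, 4.81 and 6.49 CPM. In each case the range overlapped that of vehicle, and the log2 fold changes were 0.07 ± 0.12, 0.29 ± 0.16, 0.13 ± 0.11, 0.08 ± 0.18, and 0.13 ± 0.21. *Rrm2* had the highest of these estimates, with a 95% interval of -0.06 to 0.63.

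**Figure D4:**
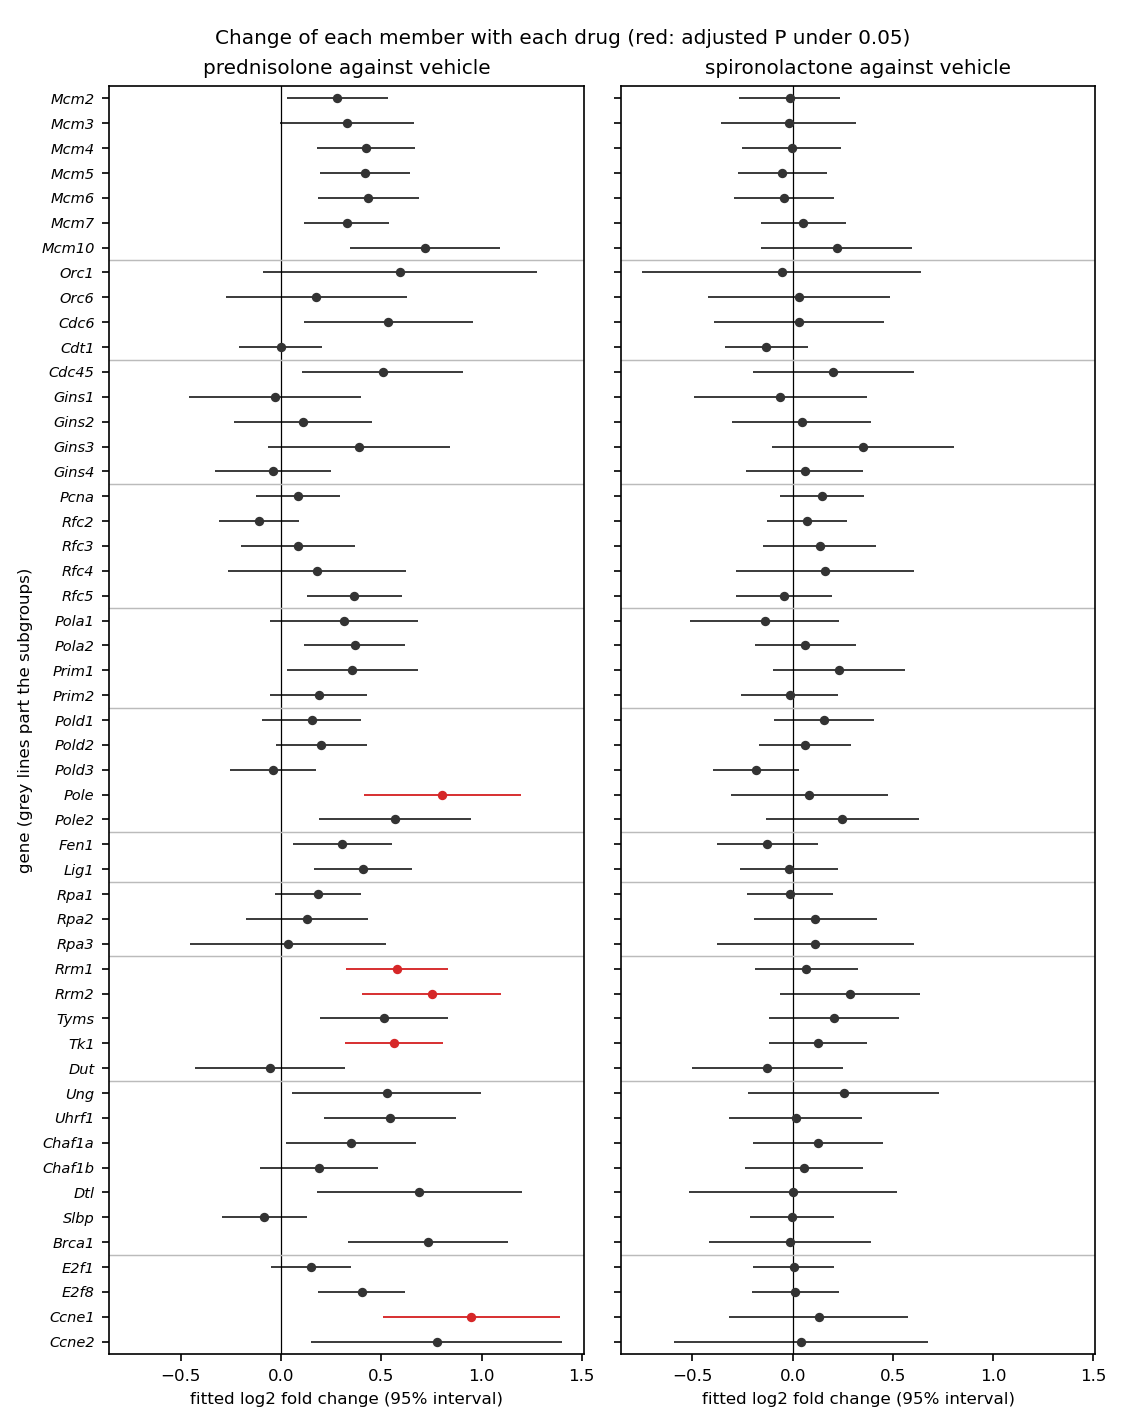
Fitted log2 fold change of each gene against vehicle with its 95% interval, for prednisolone (left) and spironolactone (right), with genes in the same order and gray lines between subgroups (red, adjusted P below 0.05 in edgeR). Estimates lie mostly to the right of 0 on the left, where 5 genes are red and 27 intervals exclude 0, and around 0 on the right, where all 51 intervals cross it. Both sides share the vehicle libraries.

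Set directly against each other, the drugs differed for part of the list. They also differed in markers of lymphocytes, endothelial cells, and erythroid cells, as given below with the other marker lists. With spironolactone 44 of 51 genes had lower estimates than with prednisolone and 7 higher, where 53.4% of all genes had higher ones, with a median log2 fold change of -0.29 against 0.03 over all genes. In edgeR 12 were called lower and 0 higher, where 2.79% of all genes were called lower and 2.38% higher, 23 were lower at an unadjusted P below 0.05 (11.1% of all genes), and 30 had every spironolactone library below every prednisolone library (15.2% of all genes). The 12 were *Mcm4*, *Mcm5*, *Mcm6*, *Rfc5*, *Pole*, *Fen1*, *Lig1*, *Rrm1*, *Tk1*, *Brca1*, *E2f8*, and *Ccne1*, with adjusted P from 0.0214 to 0.0496. The count was 0 without spironolactone replicate 2 or prednisolone replicate 1 or 2, 1 without prednisolone replicate 3, 3 without spironolactone replicate 3, and 6 without spironolactone replicate 1, while the share of all genes called ranged from 1.35% to 11.1% with 1 library left out, against 5.17% with all libraries.

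The helicase subunits lay at 38.1, 31.3 and 33.9 CPM for *Mcm4*, 42.8, 46.3 and 54.3 CPM for *Mcm5*, and 79.9, 61.9 and 72.3 CPM for *Mcm6* with spironolactone, each below the prednisolone values given above. Their differences from prednisolone were -0.43 ± 0.11, -0.47 ± 0.10, and -0.48 ± 0.12 on the log2 scale, and *Mcm5* had the lowest adjusted P of the list, 0.0214 in edgeR. The Okazaki fragment genes *Fen1* and *Lig1* were both called, at 18.8, 18.7 and 20.6 CPM for *Fen1* and 32.2, 33.3 and 38.8 CPM for *Lig1* with spironolactone, with differences of -0.43 ± 0.12 and -0.42 ± 0.11. For *Fen1* the spironolactone estimate lay below vehicle and the prednisolone estimate above it, -0.13 ± 0.12 and 0.31 ± 0.12, and neither passed the adjusted threshold. *Ccne1* and *Brca1* had the widest differences among the called genes, -0.82 ± 0.20 and -0.75 ± 0.19, with *Brca1* at 11.5, 7.02 and 8.20 CPM with spironolactone. *Pole*, *Rrm1*, and *Tk1*, called with prednisolone against vehicle, had log2 differences of -0.72 ± 0.18, -0.51 ± 0.12, and -0.44 ± 0.11 here, whereas *Rrm2*, at -0.47 ± 0.16, was not called in this comparison (adjusted P = 0.105, edgeR). *E2f8* at 21.2, 22.4 and 22.6 CPM and *Rfc5* at 11.8, 12.9 and 13.5 CPM differed by -0.39 ± 0.10 and -0.41 ± 0.11. *Pcna* was at 144, 127 and 156 CPM with spironolactone, and its difference from prednisolone was 0.06 ± 0.10, with a 95% interval of -0.15 to 0.27.

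Of the remaining described genes, *Mcm10*, *Cdc6*, *Cdc45*, and *Uhrf1* had lower estimates with spironolactone than with prednisolone but were not called. *Mcm10* was at 12.9, 9.39 and 10.3 CPM, *Cdc6* at 9.81, 6.48 and 7.54 CPM, and *Cdc45* at 8.89, 6.73 and 8.83 CPM with spironolactone. Their differences were -0.50 ± 0.17, -0.50 ± 0.20, and -0.30 ± 0.19. *Uhrf1* was at 25.2, 20.5 and 31.1 CPM and *Pola2* at 17.2, 19.3 and 20.3 CPM with spironolactone, with differences of -0.53 ± 0.15 and -0.30 ± 0.12. Of the genes with estimates nearer 0, *Cdt1* was at 55.1, 44.7 and 51.1 CPM, *Gins4* at 19.4, 23.4 and 26.3 CPM, and *Pold3* at 51.7, 49.4 and 51.6 CPM with spironolactone. *Rpa1* was at 54.6, 45.8 and 56.3 CPM, so that its prednisolone libraries lay narrowly above the other 6, and *E2f1* was at 38.2, 38.5 and 44.9 CPM, and the differences of these 5 genes from prednisolone ranged from -0.20 to 0.10.

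The genes also varied together between pools of 1 group. Vehicle replicate 2 was the lowest vehicle library for 36 of 51 genes, against 28.6% of all genes tested, and vehicle replicate 1 the highest for 32, against 38.4%. Spironolactone replicate 2 was the lowest of its group for 31 genes, against 29.3% of all genes, and prednisolone replicate 3 for 30, against 33.7%. As the mean log2 CPM over the 51 genes, vehicle libraries were at 4.01, 3.77, and 3.96, spironolactone libraries at 4.03, 3.83, and 4.05, and prednisolone libraries at 4.31, 4.30, and 4.18. The lowest prednisolone library lay above the highest of the other 6.

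Replication genes outside the 51 were taken from a second list of 62, of which 61 were tested. With prednisolone 51 had estimates above 0 and 10 below, with a median log2 fold change of 0.29, and 2 were called higher by edgeR, against 1.0% of all genes, and 24 were higher at an unadjusted P below 0.05, against 7.13%. The 2 were *Pclaf*, which encodes a PCNA-associated factor, and *Top2a*, the topoisomerase that untangles replicated DNA. *Pclaf* was at 15.02, 11.7 and 13.99 CPM with vehicle, 14.6, 14.6 and 17.4 CPM with spironolactone, and 19.6, 25.5 and 22.8 CPM with prednisolone. *Top2a* was at 83.7, 54.5 and 77.2 CPM with vehicle, 76.9, 74.4 and 82.9 CPM with spironolactone, and 114, 127 and 109 CPM with prednisolone. Both were separated from vehicle, with log2 fold changes of 0.74 ± 0.14 and 0.70 ± 0.13 and adjusted P of 0.0152 and 0.0188 in edgeR. With spironolactone 36 of the 61 had estimates above 0. By edgeR, DESeq2, and limma-voom 0 were called, where these tools called 0.0181%, 1.83%, and 0% of all genes. In edgeR 2 were higher and 1 lower at an unadjusted P below 0.05, against 5.21% and 4.07% of all genes. Against prednisolone, 5 were called lower with spironolactone, where 2.79% of all genes were, namely *Top2a*, *Pclaf*, *Hells*, *Rbl1*, and *E2f2*. Neither these 5 nor the 2 above stayed called without prednisolone replicate 2. *Hells*, a chromatin remodeler, was at 9.97, 8.61 and 9.88 CPM with vehicle, 11.6, 7.30 and 8.23 with spironolactone, and 15.1, 13.1 and 14.5 with prednisolone. *Rbl1*, the p107 pocket protein, was at 36.3, 30.3 and 32.7 CPM with vehicle, 34.9, 33.2 and 30.3 with spironolactone, and 40.9, 42.1 and 43.03 with prednisolone. *E2f2*, an activating E2F, was at 32.2, 38.1 and 40.4 CPM with vehicle, 32.2, 35.00 and 37.3 with spironolactone, and 46.7, 43.5 and 45.6 with prednisolone. For all 3 the prednisolone libraries were the highest, and their differences between the drugs were -0.65 ± 0.17, -0.36 ± 0.10, and -0.38 ± 0.10.

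Genes of the following cell cycle phases also had higher estimates. Of 26 G2 and M phase genes, all 26 had a log2 fold change above 0 with prednisolone, against 47.8% of all genes, with a median of 0.68, and 15 were called higher by edgeR, against 1.0%. All 26 were above 0 in each fit with 1 library left out, but the number called varied, as did the share of all genes called in both directions. Without prednisolone replicates 2, 3, and 1, the called genes numbered 2, 4, and 8, against 0.402%, 0.694%, and 0.892% of all genes. Without vehicle replicates 1, 2, and 3 they numbered 22, 6, and 7, against 4.83%, 0.741%, and 1.04%. Without spironolactone replicate 2 they numbered 9, against 1.38%. With spironolactone 22 were above 0 (13 without vehicle replicate 2), 0 were called, 2 were higher at an unadjusted P below 0.05, against 5.21% of all genes, and the median was 0.10. Against prednisolone, all 26 had lower estimates with spironolactone, and edgeR called 11, against 2.79% of all genes. That count was 1 to 18 with 1 library left out, where 1.35% to 11.1% of all genes were called in both directions. The order of the prednisolone libraries differed between the lists. For the 51 replication genes replicates 1 and 2 lay close together, at 4.31 and 4.30, and for the second replication list replicate 2 was the highest, at 3.96 against 3.83 and 3.79 in replicates 1 and 3. For the G2 and M phase genes replicate 1 was the lowest, at 4.63 against 4.88 and 4.79 in replicates 2 and 3. Vehicle replicate 2 was the lowest vehicle library in both lists.

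**Figure D5:**
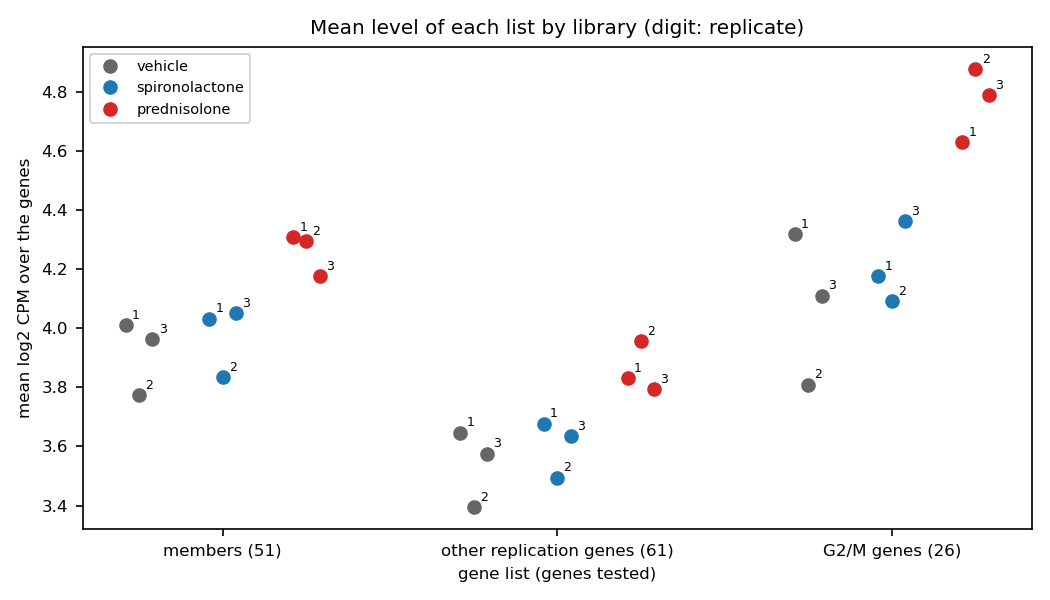
Mean log2 CPM over each of 3 gene lists in each library (points, labeled by replicate; gray, vehicle; blue, spironolactone; red, prednisolone). All prednisolone points lie above all others in each list, and vehicle replicate 2 is the lowest point in each.

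Marker levels of other cells differed between groups alongside these genes. At an unadjusted P below 0.05 in edgeR, 7.13% of all genes were higher and 7.07% lower with prednisolone against vehicle. With spironolactone against vehicle these shares were 5.21% and 4.07%. The 8 dendritic cell markers summed to 387 to 411 CPM with vehicle, 343 to 529 CPM with spironolactone, and 579.5 to 742 CPM with prednisolone, and 6 of 8 had estimates above 0 with prednisolone (median 0.35) and 7 of 8 with spironolactone (median 0.47), each with 4 at an unadjusted P below 0.05. Most of that sum was *Itgax*, which encodes CD11c and is also made by macrophages, at 323 to 334 CPM with vehicle and 471 to 654 CPM with prednisolone. *Itgax* was the 1 called gene of the list. *Flt3*, a cytokine receptor of dendritic cell precursors, *Zbtb46*, a transcription factor of conventional dendritic cells, and *Cd209a* also had every prednisolone library above every vehicle library, with log2 fold changes of 0.52, 0.57, and 0.63 and adjusted P of 0.0536, 0.212, and 0.213 in edgeR. *Xcr1* and *Clec9a*, markers of conventional type 1 dendritic cells, were at 2.76 to 4.13 CPM and 2.97 to 4.11 CPM in the vehicle and prednisolone libraries, with overlap. Of 12 resident-like macrophage markers, 8 had estimates above 0 with prednisolone and 0 were called by edgeR, with 3 higher and 1 lower at an unadjusted P below 0.05. *Lyve1*, *Timd4*, and *Cd163* had the estimates 1.44, 1.08, and 0.86, with adjusted P of 0.0816, 0.285, and 0.0992 in edgeR. These genes lay at low levels, between 3.59 and 19.8 CPM with vehicle. The abundant complement genes *C1qa*, *C1qb*, and *C1qc* had estimates below 0, at -0.23, -0.30, and -0.25, and the list summed to 4362 to 5324 CPM with prednisolone against 4648 to 5855 CPM with vehicle. Of 8 monocyte markers, 4 had estimates above 0 with prednisolone, 0 were called, and 2 were higher and 0 lower at an unadjusted P below 0.05. The 2 were *Chil3* and *F13a1*, whose prednisolone libraries all lay above the vehicle libraries, at 999 to 1259 against 290 to 774 CPM and 666 to 783 against 438 to 628 CPM, with adjusted P of 0.321 and 0.0938 in edgeR. With spironolactone 0 of the 8 were above 0, and 1 was lower at an unadjusted P below 0.05. Neutrophil markers had estimates below 0 for 9 of 11, with a median of -1.61, 0 called, and 3 lower at an unadjusted P below 0.05 in edgeR. They summed to 836 to 1069 CPM with prednisolone, and to 802, 1079, and 4985 CPM in vehicle replicates 1, 2, and 3. Only vehicle replicate 3 thus lay far above the prednisolone range. Erythroid markers had estimates below 0 for 6 of 6, with 0 called and 2 lower at an unadjusted P below 0.05, and summed to 37.1 to 79.7 CPM with prednisolone. Endothelial, fibro-adipogenic, muscle fiber, and satellite cell markers had estimates above 0 with prednisolone for 7 of 10, 8 of 10, 6 of 9, and 6 of 9 tested, and 1 muscle fiber marker was called. Lymphocyte markers summed to 31.2 to 33.9 CPM with vehicle, 45.6 to 54.2 CPM with spironolactone, and 19.3 to 29.9 CPM with prednisolone, with 12 of 13 tested having estimates below 0 with prednisolone, 5 at an unadjusted P below 0.05, and 12 of 13 above 0 with spironolactone, 6 at that threshold. Endothelial, fibro-adipogenic, muscle fiber, and erythroid markers had estimates above 0 with spironolactone against vehicle for 10 of 10, 10 of 10, 9 of 9, and 6 of 6 tested, with 0 called by edgeR and 9, 6, 8, and 5 higher at an unadjusted P below 0.05, and summed to 166 to 275, 1316 to 1777, 415 to 709, and 187 to 306 CPM with spironolactone against 78.0 to 126, 1104 to 1415, 217 to 336, and 70.3 to 135 CPM with vehicle. Between the drugs, lymphocyte, endothelial, and erythroid markers had higher estimates with spironolactone for 12 of 13, 10 of 10, and 6 of 6 tested. Of these 6, 4, and 4 were called by edgeR, against 2.38% of all genes. The muscle fiber list held 1 called higher, the resident-like macrophage list 2 higher and 2 lower, and the dendritic, monocyte, and myeloid lists 1 lower each. The part of these markers in the levels of the replication genes was not tested.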

How the data were processed

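Each of the 9 libraries had a table of read counts per gene, which the authors deposited without normalization. The submitters' processing notes name HISAT2 2.2.1, HTSeq 0.11.3, DESeq2 1.32.0, and the mm39 build. The strand setting of the counting and the annotation release are not given in the sources used here. Deposited tables of comparisons between groups, with fold changes and P values, were not used. Lines that name no gene held 17.2% to 21.8% of each file and were left out.

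Counts were filtered with filterByExpr (minimum count 10, minimum total 15), scaled by TMM (factors 0.980 to 1.03), and fitted in edgeR 4.0.16 (R 4.3.3) with all 9 libraries in 1 model. The quasi-likelihood test was two-sided, with Benjamini-Hochberg adjustment over 16618 genes and a threshold of 0.05. Intervals are 95% intervals of the fitted log2 fold change. The procedure was tested on simulated data. CPM values are TMM-normalized. TPM was computed over symbols with a GENCODE transcript, which held 91.0% to 95.0% of the counts. Promoters were read from GRCm39, the same build as mm39.

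The 51 genes, the other gene lists, and the tests were chosen with earlier results of these data known. Values per library are given for each gene called in any comparison, for the gene of each subgroup with the highest mean CPM (not length-scaled) and that with the lowest unadjusted P with prednisolone, and for up to 5 called genes of the second replication list. Alternatives were DESeq2 1.42.0, limma 3.58.1 (voom), fits on only the groups compared, RLE scaling, library totals, no filter, a stricter filter, nonrobust dispersion, a replicate block, and leaving out each library.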

Additional observations from a re-analysis of the deposited data

How the results depend on the processing

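The direction of the median change of the 51 genes held under every alternative tried for prednisolone against vehicle (leave-one-out 0.26 to 0.39) and spironolactone against prednisolone (leave-one-out -0.33 to -0.23), whereas for spironolactone against vehicle it was -0.02 without vehicle replicate 2 and up to 0.11 otherwise. Counts of calls depended on the tool, the filter, and single libraries, and the cause was not tested. With prednisolone against vehicle, called replication genes numbered 5 (1.76% of all genes called), 16 with DESeq2 (4.72%), 16 without a filter (3.43%), and 0 to 16 when 1 library was left out (0.402% to 4.83%). The second replication list held 2 called genes (1.76% of all genes called), 11 with DESeq2 (4.72%), 13 without a filter (3.43%), and 1 with only the 2 groups fitted (1.5%). With 1 library left out it held 0 to 13 (0.402% to 4.83%), namely 13 without vehicle replicate 1, 0 without prednisolone replicate 2, and 1 without prednisolone replicate 1 or vehicle replicate 2. With spironolactone against prednisolone, the 51 genes gave 12 calls (5.17% of all genes), 14 with DESeq2 (11.3%), 16 with only the 2 groups fitted (9.98%), 18 without a filter (6.52%), 9 with limma-voom (4.95%) or nonrobust dispersion (4.96%), and 0 to 14 with 1 library left out (1.35% to 11.1%). The second list gave 5 (5.17% of all genes), 13 with DESeq2 (11.3%), 16 without a filter (6.52%), and 11 with only the 2 groups fitted (9.98%). With 1 library left out it gave 0 to 13 (1.35% to 11.1%), namely 13 without vehicle replicate 1, 0 without spironolactone replicate 2 or 3 or prednisolone replicate 2 or 3, 1 without prednisolone replicate 1, and 2 without spironolactone replicate 1. Called G2 and M phase genes with prednisolone against vehicle numbered 15, 21 with DESeq2 (4.72% of all genes), and 23 without a filter (3.43%). They numbered 10 with nonrobust dispersion (1.61%) or with only the 2 groups fitted (1.5%). *Tk1*, *Rrm1*, *Rrm2*, *Ccne1*, and *Pole* were called with prednisolone under all 9 settings that kept every library, but under only 3 or 4 of the 9 that left 1 out.

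Same-numbered libraries of different groups correlated from -0.04 to 0.15 in their deviations from group means, and differently numbered ones from -0.17 to 0.04. The highest values were those of vehicle with spironolactone, 0.15 for replicate 3 and 0.12 for replicate 1. Whether replicate numbers pair the libraries was therefore not settled. A fit with the replicate block called 9 of the 51 genes with prednisolone against vehicle (2.02% of all genes), 0 with spironolactone against vehicle (0.0481%), and 13 with spironolactone against prednisolone (6.51%).

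With 1 library left out, the sign of the estimate turned in at least 1 fit for 7 of the 51 genes with prednisolone against vehicle, 29 with spironolactone against vehicle, and 11 between the drugs. The full estimates of these genes were at most 0.18, 0.13, and 0.14 log2 units from 0, and the other settings turned 1, 4, and 1 of the same genes. The genes whose values per library are given included the following. *Cdt1* with prednisolone was 0.000466 with DESeq2, 0.000477 with RLE scaling, 0.0229 with library totals, and 0.0179 without a filter, and ranged from -0.0557 to 0.0401 with 1 library left out. Their leave-one-out ranges that crossed 0 were, with prednisolone, -0.164 to 0.0470 for *Gins4* and -0.131 to 0.0680 for *Pold3*. Of the 5 genes called with prednisolone, those that crossed 0 with spironolactone were at -0.0721 to 0.251 for *Pole*, -0.0547 to 0.164 for *Rrm1*, and -0.0746 to 0.306 for *Ccne1*. Between the drugs they were -0.00969 to 0.21 for *Gins4* and -0.0126 to 0.13 for *Pcna*. With 3 pools per group, genes at a few CPM such as *Orc1* and *Ccne2* had the widest intervals.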
